A study of Mus musculus with 7 samples.

Results

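The interleukin 1 family is a group of related cytokines of barrier tissues, and its expression was examined here in skin papillomas with and without a p16 transgene. The 10 genes described are Il1a, Il1b, Il1rn, Il1f5, Il1f6, Il1f8, Il1f9, Il18, Il33 and Il1r2, listed by symbol out of 14820 genes in the table. They were chosen with earlier results of these data known. All 10 were among the 10466 genes tested, a set restricted to genes with a mean of at least 10 normalized read counts in either group. Papillomas, benign epidermal tumors, were induced with the mutagen DMBA (50 nmol, applied once to the skin at an age of 3 weeks) followed by repeated applications of the tumor promoter TPA. The 3 p16 papillomas (numbered 1, 2 and 3) came from K5-rtTA/tet-p16 mice, in which doxycycline turns on human p16 wherever the Krt5 promoter is active, chiefly in basal keratinocytes. The 4 control papillomas (1, 2, 3 and 5) came from sibling mice that carry tet-p16 without the K5-rtTA driver, so that the transgene has no activator. Both groups received DMBA, TPA and doxycycline in the drinking water, were female, and were 27 weeks old at collection, 10 days after the last TPA dose. The tet-p16 line was of mixed C57Bl6 and 129sv background and the K5-rtTA line was FVB. Whether each lesion of a group is from a different mouse is not stated in the labels, and the p-values therefore cover lesion-to-lesion spread only.

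Whole lesions were profiled by CEL-Seq2, which sequences the 3′ ends of transcripts, and the libraries held 1158035 to 4365391 reads. Values are normalized read counts, that is, reads divided by a size factor for each papilloma, and 1 read was worth between 0.735 (p16 papilloma 3) and 2.89 (p16 papilloma 2). Since the lesions were not sorted, fewer cells of a type and less RNA per cell cannot be told apart. Each difference is that of p16 from control papillomas (p16 minus control) after a log2(value + 1) transform, with its limma standard error (SE), and the threshold was a Benjamini-Hochberg adjusted p under 0.05 over all genes tested. Epithelial content was plain in each lesion, as the 5 basal keratinocyte genes listed (such as Krt5 and Krt14) summed to 32388 to 45349.5 in p16 and 43508 to 67474 in control papillomas.

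Interleukin 1 alpha (Il1a) and interleukin 1 beta (Il1b) signal through the same receptor and recruit Myd88 to activate NF-kappaB, and the antagonist encoded by Il1rn occupies that receptor without signaling. Il1a is stored in keratinocytes and released when they are damaged, whereas Il1b is made mainly by activated myeloid cells and needs cleavage by caspase 1. The genes Il1f6, Il1f8 and Il1f9 encode the interleukin 36 agonists alpha, beta and gamma, which drive epidermal inflammation through the receptor Il1rl2, and Il1f5 encodes the antagonist of that receptor. Il18 also requires caspase cleavage, Il33 is a nuclear alarmin of epithelial cells, and Il1r2 is a decoy receptor that binds interleukin 1 without signaling.

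Of these genes 7 lie on mouse chromosome 2 in 2 groups (GRCm38, GENCODE M21 gene models). The interleukin 36 genes and Il1rn follow each other on the plus strand in the order Il1f8 (24153161 to 24160519), Il1f9 (24186476 to 24193568), Il1f6 (24215418 to 24225702), Il1f5 (24276954 to 24283426) and Il1rn (24336853 to 24351494). Il1a (129299610 to 129309972) and Il1b (129364570 to 129371139) are both on the minus strand, separated by 54.6 kb. The sequences upstream of 3 start sites are shown because Il1a passed the test while its neighbor Il1b did not, and because Il1f5 had the smallest p of the family. Each run holds the 250 bases before a RefSeq start site (build GRCm38.p6), read 5′ to 3′ on the strand of the gene, at chr2:129309973-129310222 (minus) for Il1a, chr2:129371140-129371389 (minus) for Il1b and chr2:24276704-24276953 (plus) for Il1f5. Capitals mark exact matches to the AP-1 motif TGANTCA, where N is any base, or to the TATA box motif TATAAA, searched on both strands.
Il1a: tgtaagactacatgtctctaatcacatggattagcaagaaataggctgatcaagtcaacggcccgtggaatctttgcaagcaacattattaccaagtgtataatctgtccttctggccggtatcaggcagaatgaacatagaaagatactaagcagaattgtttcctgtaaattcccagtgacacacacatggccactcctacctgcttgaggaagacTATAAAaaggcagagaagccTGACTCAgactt
Il1b: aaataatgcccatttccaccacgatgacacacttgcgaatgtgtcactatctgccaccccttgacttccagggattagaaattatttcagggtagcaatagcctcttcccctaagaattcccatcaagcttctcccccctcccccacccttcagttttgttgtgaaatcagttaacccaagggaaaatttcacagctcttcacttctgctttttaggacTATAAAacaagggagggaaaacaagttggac
Il1f5: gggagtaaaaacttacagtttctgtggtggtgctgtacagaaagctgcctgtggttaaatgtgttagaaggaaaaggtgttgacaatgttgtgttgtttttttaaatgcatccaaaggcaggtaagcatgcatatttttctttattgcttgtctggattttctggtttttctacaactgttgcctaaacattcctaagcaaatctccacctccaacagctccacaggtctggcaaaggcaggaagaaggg

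The Il1a and Il1b sequences both carry a TATA box, its first base 32 and 31 bases before the start, and only the Il1a sequence among the 3 printed has an AP-1 match, 12 bases before the start. No match to either motif is present in the Il1f5 sequence. Over the family, RefSeq promoter windows (from 250 bases before to 50 bases after a start) were found for 9 of the 10 genes, 13 windows in all. Of the 13 windows 3 held an AP-1 match (in Il1a, Il1rn and Il1f8) and 6 a TATA match (in Il1a, Il1b, Il1rn, Il18 and both windows of Il33). Relative to the start, the TATA matches began at -32 (Il1a), -31 (Il1b), -29 and -203 (Il33), -175 (Il18) and 14 (Il1rn). Among all 32851 windows of that length, 7.81% held the AP-1 motif and 13.6% the TATA motif. The motifs did not overlap each other in the printed sequences, and a match describes letters, not binding.

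In p16 papillomas, 3 of the 10 genes rose (Il1a, Il1f5 and Il1f6) and 0 fell. Over all genes tested, 5.62% passed the same threshold, 2.66% as higher and 2.96% as lower in p16 papillomas. Since the 10 genes were chosen with earlier results known, the values over all genes are set beside them as a description. No family member was lower at an unadjusted p under 0.05 in limma, and edgeR and DESeq2 on the recovered reads also called 0 lower. The median log2 difference over the 10 genes was 0.53, against -0.02 over all genes tested, with 8 differences above 0 and 2 below. By the cutoff of the study (unadjusted p under 0.05 and an absolute log2 difference over 0.6), applied here to limma values, 5 members passed, against a background of 15.2%. The study applied this cutoff to DESeq2 results for its gene set analysis. It also left out genes not expressed in sorted keratinocytes, a mark that Il1a and Il1f6 lack. In 5 members every p16 papilloma lay above every control, a pattern found in 9.25% of all genes tested, and 19.6% of genes had groups that did not overlap in either direction.

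**Figure D1:**
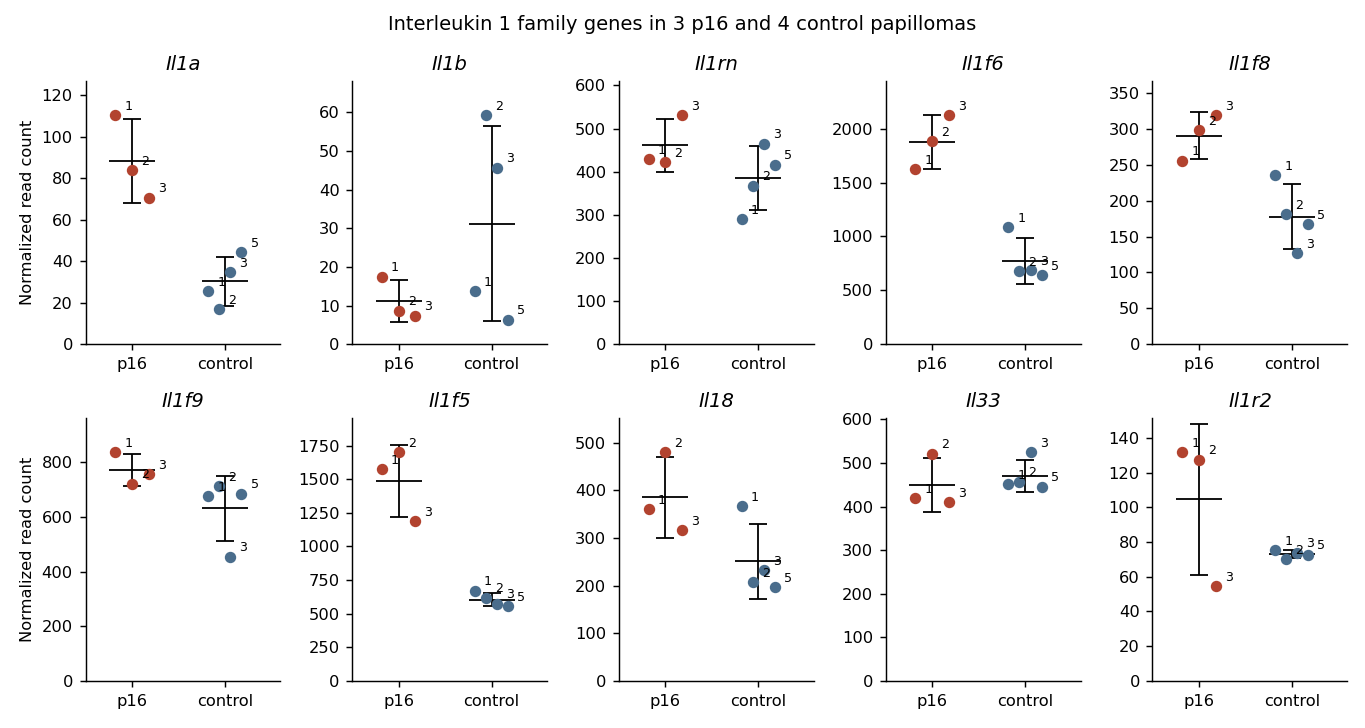
Normalized read counts (vertical axes, linear from 0, each gene on its own scale) of the 10 interleukin 1 family genes. Points are single papillomas labelled by their number, p16 on the left and control on the right, and bars give the mean ± SD (n = 3 p16 and n = 4 control). The p16 points lie above all control points for Il1a, Il1f5, Il1f6, Il1f8 and Il1f9, and the lowest p16 point of Il1f6 (1626) is above its highest control point (1085, papilloma 1).

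Il1a rose in p16 papillomas. It had 110.3, 83.9 and 70.6 normalized read counts in p16 papillomas 1, 2 and 3, against 25.6, 16.9, 34.7 and 44.3 in control papillomas 1, 2, 3 and 5. The lowest p16 value exceeded the highest control value, and the means were 88.3 ± 20.2 (SD, n = 3) in p16 and 30.4 ± 11.8 (SD, n = 4) in control papillomas, a ratio of 2.91. The log2 difference was 1.57 (SE 0.32, limma, adjusted p = 0.0146). These values rest on 82, 29 and 96 reads in the p16 libraries and 14 to 42 in the control libraries. Without p16 papilloma 1 the difference was 1.40 (adjusted p = 0.0683) and without p16 papilloma 2 it was 1.59 (adjusted p = 0.0510), neither of which passed the threshold. The non-coding gene Gm14023 (129297370 to 129307826) overlaps Il1a on the opposite strand, including the 3′ end of Il1a at 129299610. Since a strand setting for the counting was not given in the sources used here, reads from the overlap cannot be told apart.

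Il1b, the neighbor of Il1a, did not pass the test and had the largest coefficients of variation of the family (49.3% in p16 and 81.0% in control papillomas). Its normalized read counts were 17.5, 8.68 and 7.35 in p16 papillomas, against 13.7, 59.2, 45.7 and 6.32 in control papillomas. Control papillomas 2 and 3 stood above the other 5 lesions, and the remaining control values fell within or below the p16 range. Those 2 controls also had the largest sums of the 8 leukocyte genes listed (403 and 566, against 243 to 360.2 in the other lesions). The largest part of both sums was Cd53 (204 and 308, against 88.8 to 112.9 in the other lesions). By the mean of log2 values of these genes, control papilloma 3 was highest (5.52), but control papilloma 2 (5.17) lay below p16 papilloma 3 (5.30). The log2 difference of Il1b was -1.04 (SE 0.66, 95% interval -2.49 to 0.42, limma, adjusted p = 0.404), resting on 3 to 13 reads a library in p16 and 6 to 50 in control papillomas. With a summary of leukocyte genes as a covariate it was -0.75 (limma, adjusted p = 0.547). When any 1 papilloma was left out, the log2 difference of Il1b ranged from -1.59 to -0.58. The value of -1.59 was that without control papilloma 5 (limma, unadjusted p = 0.0154, adjusted p = 0.160). The antisense gene Il1bos (129369897 to 129375748) overlaps only the 5′ part of Il1b, whose 3′ end, the end sequenced by CEL-Seq2, is at 129364570. Any reads from that overlap have the same limit on telling strands apart. As a description, the ratio of Il1a to Il1b was 6.31, 9.67 and 9.60 in p16 papillomas, against 1.88, 0.286, 0.76 and 7 in control papillomas, so control papilloma 5 lay inside the p16 range.

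Il1rn, the interleukin 1 receptor antagonist, overlapped between the groups. It had 429, 423 and 531 normalized read counts in p16 papillomas, against 290.4, 367, 465 and 416 in control papillomas. Only p16 papilloma 3 exceeded every control lesion. The log2 difference was 0.27 (SE 0.18, 95% interval -0.12 to 0.67, limma, adjusted p = 0.42). The ratio of Il1rn to the summed Il1a and Il1b counts was 3.36, 4.56 and 6.81 in p16 papillomas and 7.39, 4.83, 5.78 and 8.23 in control papillomas. These ratios overlapped, with the 2 lowest in p16 papillomas 1 and 2.

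Of the 3 interleukin 36 agonists, Il1f6 rose in p16 papillomas and Il1f8 and Il1f9 did not pass the test. Il1f6 had 1626, 1881 and 2123 normalized read counts in p16 papillomas, against 1085, 675, 688 and 639.6 in control papillomas. Control papilloma 1 stood above the other controls but below each p16 lesion. The ratio of the means was 2.43 and the log2 difference 1.31 (SE 0.19, limma, adjusted p = 0.00295), between 1.21 and 1.48 when any 1 papilloma was left out.

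Il1f8 had 256, 298 and 319 normalized read counts in p16 papillomas, against 236, 181, 127 and 168 in control papillomas. The groups did not overlap, with control papilloma 1 again the highest of its group. Its log2 difference of 0.74 (SE 0.20, 95% interval 0.29 to 1.18) missed the threshold (limma, adjusted p = 0.0602), and passed it without control papilloma 1 (0.88, adjusted p = 0.0226), when scaled to library totals (limma, adjusted p = 0.0441) and in DESeq2 on the recovered reads (adjusted p = 0.0291). Il1f9 had 837, 721 and 756 in p16 papillomas, against 675, 713, 455 and 685 in control papillomas. Here the groups were separated only by the step between 721 in p16 papilloma 2 and 713 in control papilloma 2. The log2 difference of Il1f9 was 0.31 (SE 0.17, 95% interval -0.08 to 0.69, limma, adjusted p = 0.341).

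Il1f5, the antagonist of the interleukin 36 receptor, rose alongside the agonist Il1f6. It had 1577, 1702 and 1187 normalized read counts in p16 papillomas, against 669.6, 618, 575 and 556 in control papillomas. The controls lay close together (coefficient of variation 8.32%, against 18% in p16 papillomas), and the lowest p16 lesion, papilloma 3, was well above them. The means were 1489 ± 269 (SD, n = 3) in p16 and 605 ± 50.3 (SD, n = 4) in control papillomas, a ratio of 2.46. The log2 difference was 1.28 (SE 0.16, limma, adjusted p = 0.00105) and stayed past the threshold without any 1 papilloma (1.18 to 1.44).

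The summed counts of the 3 agonists were 2719, 2900.4 and 3199 in p16 papillomas, against 1995, 1569, 1269 and 1492 in control papillomas. Set against that sum, Il1f5 was 0.580, 0.587 and 0.371 in p16 papillomas and 0.336, 0.394, 0.453 and 0.373 in control papillomas. In this ratio p16 papillomas 1 and 2 stood above all controls, whereas p16 papilloma 3, with the most Il1f6 and the least Il1f5 of its group, lay among them. The ratios compare lesions only, since counts of different genes need not reflect the same number of transcripts. Il1f10, which lies between Il1f5 and Il1rn and is not one of the 10 genes, had at most 4.04 normalized read counts in any lesion and was not tested.

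Il18 and Il33 did not pass the test. Il18 had 361, 481 and 316 normalized read counts in p16 papillomas, against 366, 208, 232 and 197 in control papillomas. Control papilloma 1 lay within the p16 range while the other 3 controls lay below it. The log2 difference was 0.64 (SE 0.23, 95% interval 0.14 to 1.14, limma, adjusted p = 0.129), and 0.84 (adjusted p = 0.0268) without control papilloma 1. Il33 had 419.7, 521 and 409 in p16 papillomas, against 451, 457, 525 and 446 in control papillomas. Its groups overlapped almost completely, and the log2 difference of -0.07 (SE 0.15, limma, adjusted p = 0.841) had a 95% interval of -0.39 to 0.26, the narrowest of the family.

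Il1r2, the decoy receptor, split the p16 lesions. It had 132, 127 and 54.4 normalized read counts in p16 papillomas, against 75.2, 70.1, 74.0 and 72.7 in control papillomas. Papillomas 1 and 2 of the p16 group lay above the tightly grouped controls and p16 papilloma 3 below them. The log2 difference was 0.41 (SE 0.28, 95% interval -0.21 to 1.03, limma, adjusted p = 0.441), and 0.82 (adjusted p = 0.0404) without p16 papilloma 3.

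**Figure D2:**
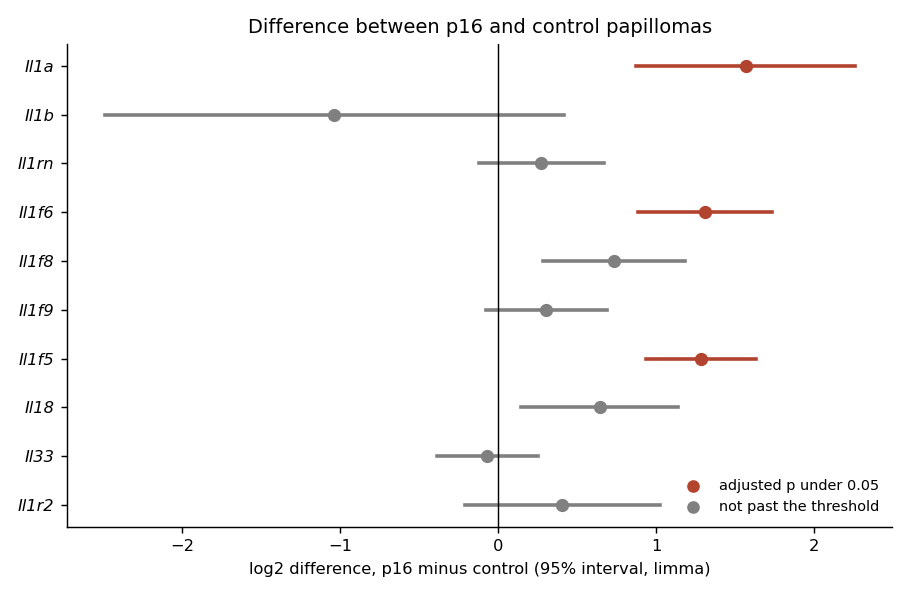
Log2 difference between p16 and control papillomas (horizontal axis, p16 minus control, after a log2(value + 1) transform) with its 95% limma interval, 1 line per gene. Red marks genes with adjusted p under 0.05 and gray the others. Il1a (1.57), Il1f6 (1.31) and Il1f5 (1.28) are red, and Il1b has the widest interval (-2.49 to 0.42).

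Lesions differed in what they held besides keratinocytes, and these values stand beside the 3 rises. The 6 skeletal muscle genes listed summed to 164, 6154 and 1341 in p16 papillomas 1, 2 and 3, against 107 to 324 in control papillomas. Of 4 tested adipocyte genes, Adipoq, Car3 and Cfd were higher in p16 papillomas, whereas Fabp4, the most abundant, averaged 1682 in p16 and 5759 in control papillomas (log2 difference -1.54, limma, adjusted p = 0.0764). The adipocyte list summed to 1887 to 2537 in p16 and 1826 to 11292 in control papillomas. With a summary of muscle and adipocyte genes as a covariate, Il1a, Il1f5 and Il1f6 had log2 differences of 2.06, 1.18 and 1.07 and none passed the threshold (limma, adjusted p = 0.0775, 0.0659 and 0.143), in a fit that called 64 genes in all against 588 without the covariate. In p16 papilloma 1 the covariate was 5.67, inside the control range of 4.25 to 5.72, and that lesion had 110.3 normalized read counts of Il1a, 1577 of Il1f5 and 1626 of Il1f6, all above every control. The same lesion also exceeded every control for Adipoq (22.9, against at most 12.6), Cfd (65.9, against at most 8.46) and Car3 (137, against at most 38.7). These adipocyte genes did not overlap between the groups, so that their contribution and that of the transgene cannot be told apart.

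Keratinocyte layer genes and a fibroblast gene moved as well. Of the 5 granular layer genes 4 were higher (Flg, Ivl, Flg2 and Hrnr), with a list sum of 50865 to 86327 in p16 and 31016 to 34284 in control papillomas, and 2 of the 5 spinous genes were higher, the keratins Krt1 (log2 difference 1.47) and Krt10 (1.43), while Krtdap (0.29), Sbsn (-0.17) and Dsg1a (0.04) did not pass the test. Of the 5 basal genes Itga6 was lower (log2 difference -0.73, limma, adjusted p = 0.0169), and the other 4, at -0.77 (Krt14) to -0.20 (Krt5), did not pass the test. Of the 5 fibroblast genes Dcn was higher (log2 difference 2.14, limma, adjusted p = 0.0280), with a list sum of 2235 to 11646 in p16 and 3163 to 8973 in control papillomas. Of 8 leukocyte genes none was called, with sums of 243 to 360.2 in p16 and 244 to 566 in control papillomas, and of 5 tested macrophage genes none was called, with sums of 137 to 151 in p16 and 105 to 181 in control papillomas. Neutrophil genes summed to 96.3 to 209 in p16 and 82.2 to 141 in control papillomas (2 tested, none called, Ly6g and Elane not analysed here). Most of that sum was Csf3r and Cxcr2, which carry the authors' mark for sorted keratinocytes. Of the untested genes, Retnlg, without that mark, had 1.35, 0 and 0.735 in p16 and 5.12, 24.2, 6.39 and 2.11 in control papillomas. Mpo had at most 3.68 in p16 and 0 in control papillomas. The T cell genes summed to at most 12.1 in p16 and 12.6 in control papillomas. The mast cell genes summed to 55.0 to 186 in p16 and 28.4 to 54.4 in control papillomas, with none called. The part of keratinocyte layers, fibroblasts and mast cells in the family's differences was not tested. Il1a and Il1f6 were the 2 members without the authors' mark for genes expressed in sorted keratinocytes.

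**Figure D3:**
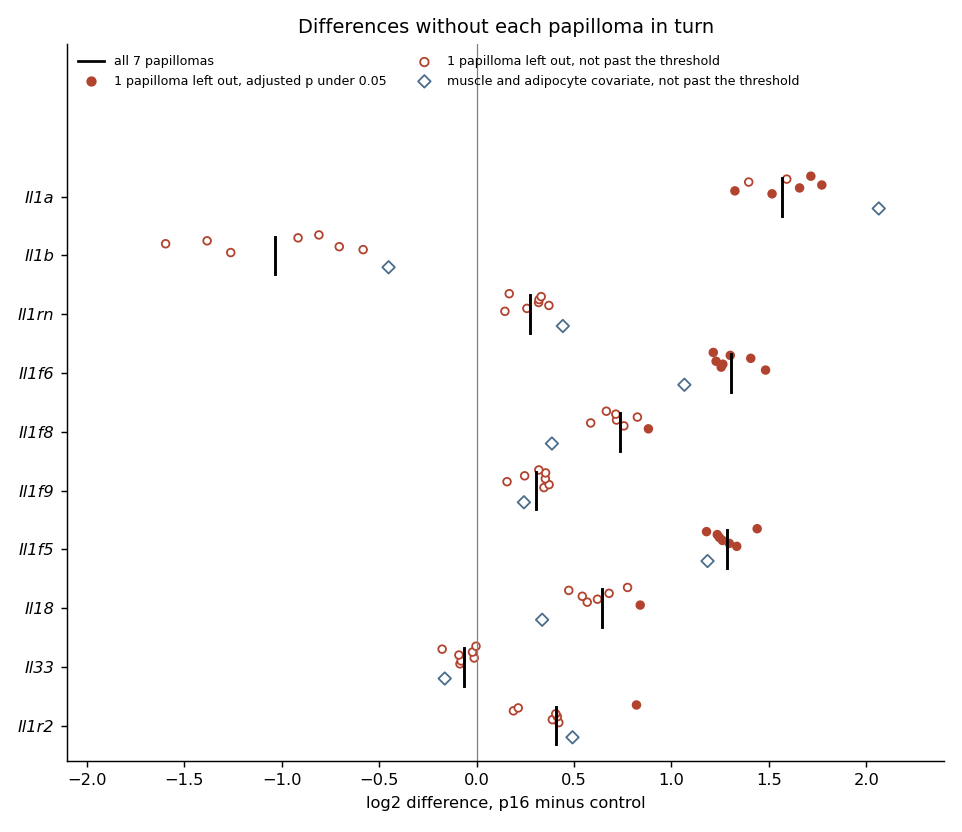
Log2 difference between p16 and control papillomas (horizontal axis) for each family gene with 1 papilloma left out (red circles, 7 per gene, filled where adjusted p was under 0.05), with all 7 papillomas (black lines) and with a muscle and adipocyte covariate (blue diamonds). Every circle of Il1f5 (1.18 to 1.44) and Il1f6 (1.21 to 1.48) is filled, 2 circles of Il1a are open, and every diamond is open.

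Among receptors, adaptors and soluble binding proteins of the pathway, Irak3 was the one gene that passed the test. Of 20 genes listed 15 were tested, 1 was higher and 0 were lower in limma (0 lower at an unadjusted p under 0.05 and 0 lower in edgeR and DESeq2), with a median log2 difference of 0.10. Irak3 encodes a kinase-like protein that restrains signaling from interleukin 1 and Toll-like receptors. Irak3 had 83.4, 95.5 and 63.2 normalized read counts in p16 papillomas, against 19.6, 16.9, 17.3 and 20 in control papillomas. The groups were far apart, and the log2 difference was 2.05 (SE 0.24, limma, adjusted p = 0.0009). The interleukin 36 receptor gene Il1rl2 had 102, 95.5 and 95.6 in p16 papillomas, against 81.1, 106, 79.4 and 100.1 in control papillomas, a log2 difference of 0.10 with a 95% interval of -0.30 to 0.50. Il1rap, the shared accessory receptor chain, had a log2 difference of 0.34 (limma, adjusted p = 0.349) and Myd88 one of -0.06 (adjusted p = 0.892). Il1r1, the signaling receptor of Il1a and Il1b, had at most 10.8 normalized read counts in any lesion and was not tested.

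Among genes for the inflammasome and for processing of these cytokines, 12 of 20 listed were tested and 2 were higher. The 0 lower calls in limma were 0 in edgeR and DESeq2 as well, with 1 gene lower at an unadjusted p under 0.05, and the median log2 difference was 0.34. Casp4, an inflammatory caspase that senses bacterial lipopolysaccharide, had 55.2, 20.3 and 39.0 normalized read counts in p16 papillomas, against 5.12, 12.1, 6.39 and 8.43 in control papillomas (log2 difference 2.07, SE 0.44, limma, adjusted p = 0.0186). Gsdma, an epidermal gasdermin, had 2751, 2753 and 2251 in p16 papillomas, against 1653, 1619, 1356 and 2039 in control papillomas (log2 difference 0.64, SE 0.16, limma, adjusted p = 0.0442). Neither gene overlapped between the groups. The adjusted p of Casp4 was 0.0881 without p16 papilloma 1 and 0.0644 without p16 papilloma 3, and that of Gsdma ranged up to 0.157 and missed the threshold in 5 of the 7 omissions. With the replicate number as a block both missed it (limma, adjusted p = 0.108 for Casp4 and 0.0608 for Gsdma). Gsdma also missed it in edgeR (adjusted p = 0.0534), without the filter on low values (limma, 0.0561) and with the leukocyte covariate (limma, 0.0535). Casp1, the protease that matures Il1b and Il18, had a log2 difference of 0.19 (limma, adjusted p = 0.715).

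Of 16 NF-kappaB subunits and feedback genes 14 were tested, with 1 higher, a median log2 difference of 0.12, and 0 lower in limma, at an unadjusted p under 0.05, in edgeR and in DESeq2. Zc3h12a, which encodes an endoribonuclease that degrades inflammatory transcripts, had 278, 553 and 231 normalized read counts in p16 papillomas, against 90.5, 80.9, 54.8 and 59.0 in control papillomas. All p16 lesions exceeded all controls, with p16 papilloma 2 the highest, and the log2 difference was 2.22 (SE 0.29, limma, adjusted p = 0.00142). With the muscle and adipocyte covariate it was 1.51 (adjusted p = 0.0879). The subunit genes Rela (0.01) and Nfkb1 (0.25) had log2 differences that did not pass the test.

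Genes known to be induced by interleukin 1 or interleukin 36 in keratinocytes went both ways. Of 22 listed 17 were tested, 4 were higher (Lcn2, Saa1, S100a8 and S100a9) and 3 lower (Cxcl2, Ccl2 and Defb4), with a median log2 difference of 0.14. At an unadjusted p under 0.05 in limma, 6 were higher and 6 lower. Saa1, Cxcl2 and Defb4 lack the authors' mark for genes expressed in sorted keratinocytes, while the other called genes carry it. Which cells of the whole lesions made these transcripts was not tested. Lcn2, an iron-sequestering protein, had 486, 249 and 1194 normalized read counts in p16 papillomas, against 34.2, 21.7, 82.2 and 42.1 in control papillomas (log2 difference 3.68, SE 0.49, limma, adjusted p = 0.00172). S100a8 and S100a9, the subunits of calprotectin, made by stressed keratinocytes and by neutrophils, had log2 differences of 2.30 (SE 0.34, limma, adjusted p = 0.00307) and 2.13 (SE 0.32, adjusted p = 0.00311). Saa1, an acute phase protein with near-identical relatives whose reads may be shared, had 28.2, 28.9 and 29.4 in p16 papillomas, against 2.56, 6.04, 4.57 and 1.05 in control papillomas, from at most 40 reads in a library (log2 difference 2.86, SE 0.53, limma, adjusted p = 0.0094).

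The 3 that fell include chemokine genes. Cxcl2, which attracts neutrophils, had 14.8, 8.68 and 21.3 normalized read counts in p16 papillomas, against 68.3, 349, 726 and 35.8 in control papillomas (log2 difference -3.41, SE 0.82, limma, adjusted p = 0.0347). The controls themselves spanned a wide range, with papillomas 2 and 3 highest, the same lesions that were highest for Il1b. Ccl2, which attracts monocytes, had 90.1, 63.7 and 154 in p16 papillomas, against 462, 217, 163 and 275 in control papillomas (log2 difference -1.42, SE 0.35, limma, adjusted p = 0.0382). Defb4, a beta-defensin, had 157, 75.3 and 118 in p16 papillomas, against 361, 184, 217 and 419 in control papillomas (log2 difference -1.31, SE 0.31, limma, adjusted p = 0.0324). None of these 3 groups of values overlapped, but over the omissions of 1 papilloma the adjusted p ranged up to 0.124 for Cxcl2, 0.147 for Ccl2 and 0.129 for Defb4. The call was lost in 4, 5 and 4 of the 7 omissions, in that order. Ccl2 also missed the threshold in edgeR (adjusted p = 0.0542), with the replicate number as a block (limma, adjusted p = 0.121) and with the leukocyte covariate (limma, adjusted p = 0.0599). Of this list edgeR called 4 genes higher and 2 lower, and DESeq2 5 higher and 5 lower. With the muscle and adipocyte covariate, Irak3 (limma, adjusted p = 0.0458) and Lcn2 (adjusted p = 0.0099) were the called genes of the 4 lists that still passed.

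**Figure D4:**
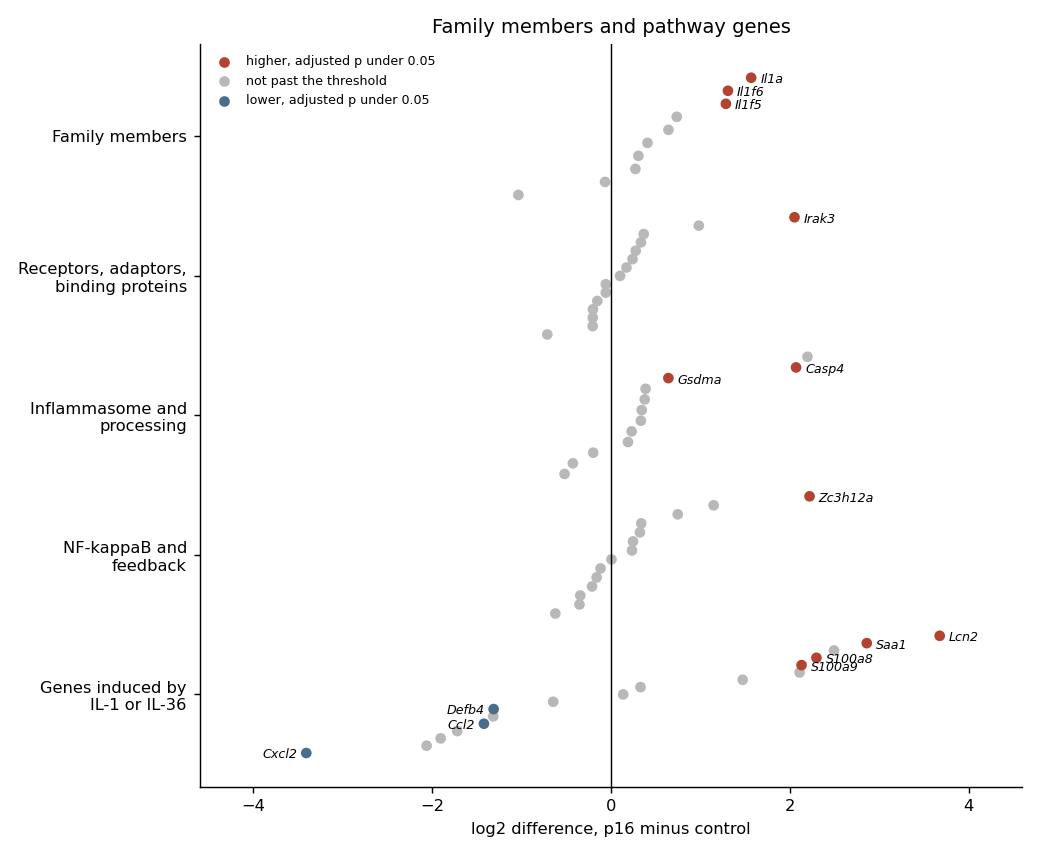
Log2 difference between p16 and control papillomas (horizontal axis) of the 10 family members and of the 58 tested pathway genes in 4 lists, 1 point per gene, sorted within each list. Red points rose and blue points fell (adjusted p under 0.05), gray points did not pass the test. The receptor, processing and NF-kappaB lists hold no blue point, while the list of induced genes holds 4 red and 3 blue ones.

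Across the 7 papillomas, values of Il1f5 followed those of Il1f6 (Pearson r = 0.91 of log2 values), and Il1f6 those of Il1f8 (r = 0.93), as a description over lesions of both groups. Outside the family, the tested genes most like Il1f5 were Cd109 (r = 0.997), a membrane protein of epithelial cells, Acer1 (r = 0.996), a ceramidase, and 2210017I01Rik (r = 0.993). Cd109 had 264, 284 and 223 normalized read counts in p16 papillomas, against 132, 133, 129.7 and 121 in control papillomas. The genes most like Il1b were Ube2l6 (r = 0.977), Pigc (r = 0.969) and Rasip1 (r = 0.954), all 3 highest in control papillomas 2 and 3. Each r rests on 7 lesions that differ in depth and group, and 10466 genes were searched for the nearest.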

How the data were processed

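RNA of 7 whole papillomas was profiled by CEL-Seq2. Per the methods of the study, the authors trimmed reads with Cutadapt, aligned them to GRCm38 with TopHat2 and ran DESeq2, and the submitters' processing notes also name HTSeq. Their versions, the annotation release and the strand setting are not given in the sources used here. The authors deposited a signal value per gene and papilloma, the read count divided by a DESeq2 size factor. Dividing by the value of a single read gave whole numbers throughout (100% at a tolerance of 0.001), so reads were recovered for depth and count-based alternatives. The table also holds the authors' log2 fold changes with errors, statistics, p-values and adjusted p-values, which were not used, and a keratinocyte mark (12235 genes).

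Papillomas were grouped by their labels. Genes were kept where the mean of either group reached 10. The test was two-sided limma (3.58.1, R 4.3.3) with a mean-variance trend, after a log2(value + 1) transform. The added 1 understates the change of weakly expressed genes. Members and gene lists were chosen with earlier results of these data known. Named are all members, the called genes of each list, and the 3 genes most correlated with the member of smallest p in each direction of difference. Other receptor, processing and NF-kappaB genes and the differentiation markers were named after their values were seen. The fit was tested on simulated reads with an assumed spread between lesions. It called 15.3% of 2-fold and 88.8% of 4-fold changes, with 0 false calls. A gene that did not pass the test is therefore not shown to be unchanged. Alternatives were pseudocounts 0.5 and 4, other filters, scaling to totals or TMM, edgeR (4.0.16) and DESeq2 (1.42.0) on reads, the replicate number as a block, marker covariates, keratinocyte-marked genes alone, and omission of each papilloma. Papillomas that share a number did not count as pairs, since the labels tie nothing to the numbers and the correlations of their deviations were -0.09, -0.01 and -0.05. Promoters are from RefSeq (GRCm38.p6). Tables and plots were made with pandas 2.3.3 and matplotlib 3.10.9 (Python 3.11.15).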

Additional observations from a re-analysis of the deposited data

Results flagged for a closer look

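Among 27 named genes, 3 had a control papilloma far from the other 3 of its group by Dixon's test, which chance gives in about 1 of 20 groups. All 3 genes are family members. Il1f6 ranged from 1626 to 2123 normalized read counts in p16 papillomas, against 1084.6 in control papilloma 1 and 639.6 to 688 in the other controls. Il1f9 ranged from 721 to 837 in p16 papillomas, against 454.7 in control papilloma 3 and 675 to 713 in the other controls. Il33 ranged from 409 to 521 in p16 papillomas, against 525.0 in control papilloma 3 and 446 to 457 in the other controls. The p16 group, with 3 lesions, was not examined in this way.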

How the results depend on the processing

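No family member changed direction under any alternative. The 3 calls (Il1a, Il1f5 and Il1f6) became 0 with the muscle and adipocyte covariate, 1 among keratinocyte-marked genes alone, where Il1a and Il1f6 were not tested, and 5 by the cutoff of the study, and ranged from 2 to 5 when each papilloma was left out. Over all genes, 588 calls became 64 with that covariate, 1590 by the cutoff of the study and 270 with the replicate block, and ranged from 267 to 548 when each papilloma was left out. The replicate block kept 3 family calls, and scaling to library totals and DESeq2 each gave 4, with Il1f8. The alternatives gave 178 member results on the same side of the threshold, 5 newly past it and 5 no longer past it. Scaling to library totals moved the median of all genes by 0.01 on the log2 scale. The depth of p16 papilloma 2 (1158035 reads) limits Il1a and Il1b, with 29 and 3 reads there.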
